A study of Mus musculus with 20 samples.

Results

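The effect of trichostatin A (TSA), an inhibitor of histone deacetylases, on gene expression in CD8 T cells stimulated for 72 h was described from 1 array with TSA and 1 array without it. The members are all named genes of the array, and the rule that chose them used the labels of the arrays and no measured value. Of 8251 named genes, 5946 were kept because their intensity was above the 40th percentile of its array on at least 1 of the 2 arrays. Both arrays passed that limit for 5231 of them, the TSA array alone for 363 and the Ag-B7 array alone for 352. The other genes were left out of the counts as too dim.

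The cells were CD44lo CD8+ T cells of OT-1 TCR transgenic mice (strain C57Bl6, 6 to 8 weeks old), whose transgenic receptor is specific for a peptide of ovalbumin bound to H-2Kb, a class I molecule. They were obtained from lymph nodes by negative enrichment and cultured on latex microspheres coated with that complex (the antigen, Ag) and with B7-1, a costimulatory ligand; this stimulus is written Ag-B7. Human recombinant IL-2 was present in every culture, TSA-treated or not, so Ag-B7 alone means without TSA, IL-12 or type I interferon (IFNa/b). The series holds 20 arrays, with 3 of naive cells, single arrays at 24 h and at 72 h for Ag-B7 alone and for each cytokine, 1 with TSA at 72 h only, 4 of Ag-B7 at 48 h, and 3 each of Ag-B7 with IL-12 and with IFNa/b at 48 h, which the labels call biological replicates. Neither the TSA concentration nor the time of its addition is stated in the labels. The TSA array and the Ag-B7 array at 72 h are 1 sample each, so no difference between them has a replicate check, and no p-value is given for it. All cells came from a single receptor specificity in culture without antigen-presenting cells, which limits them as a model of a response in an animal.

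Histone acetyltransferases add acetyl groups to lysines of histone tails, which loosens chromatin and recruits acetyl-lysine readers, and histone deacetylases remove them. TSA blocks the zinc-dependent deacetylases, raises acetylation of histones and of other proteins, and is known both to open silent genes and to lower the transcription of active ones. In CD8 T cells, acetylation at effector genes such as Ifng and Eomes is linked to the third signal of activation, which IL-12 or type I interferon delivers beside antigen and costimulation, and the series set TSA beside both cytokines.

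Differences are given as log2(intensity + 46.4) on the TSA array minus the same on the Ag-B7 array, a scale that understates changes of dim genes, and a gene is called higher or lower when the difference is at least 1, which is 2-fold. With TSA, 472 of the 5946 kept genes (7.94%) were at least 2-fold higher and 553 (9.30%) at least 2-fold lower. Together they were 1025 genes, or 17.2%, and 52 of the higher and 65 of the lower genes were past 4-fold. Of the called genes, 306 higher and 356 lower ones passed the brightness filter on both arrays. The others, Tnf and Eomes among them, passed it only on the array where they were brighter, so the filter favoured their difference. The median difference over all kept genes was 0.03. Just inside the limit were Rcc1 (1.0003) and Ifnar1 (-1.002), and just outside it were Bmyc (0.9993) and Klf6 (-0.9985).

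The size of these differences can be set against that between replicates. The 12 pairs of replicate arrays of the 3 stimulated groups at 48 h differed past 2-fold in 315 to 643 genes (5.31% to 10.8%), and past 4-fold in 19 to 64. The standard deviation of the difference over genes was 0.78 for TSA and 0.49 to 0.63 for the replicate pairs. Across kept genes, Pearson's r between the TSA and the Ag-B7 array was 0.887, against 0.950 to 0.967 between replicates; genes are not independent replicates, and r is a description. At 72 h, IL-12 against the same Ag-B7 array passed 2-fold in 581 genes (9.86%) and IFNa/b in 456 (7.78%). The TSA pair lay above the replicate pairs in the count past 2-fold, the count past 4-fold (117) and the standard deviation. The IFNa/b pair lay within their range in all 3 (41 past 4-fold, standard deviation 0.58), and the IL-12 pair only in the count past 2-fold (94 past 4-fold, standard deviation 0.64). The replicate pairs were all at 48 h, and the spread between 72 h arrays was not measured.

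**Figure D1:**
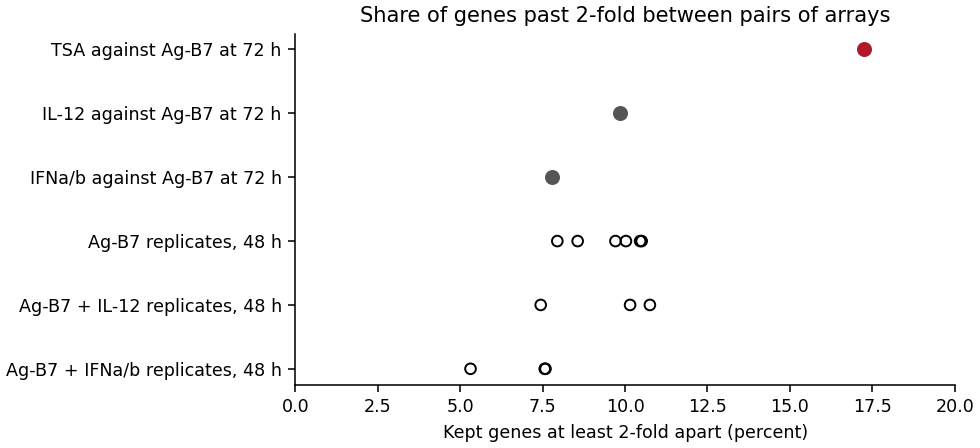
Share of kept genes at least 2-fold apart (x axis, percent) for pairs of arrays. The filled points are each agent against the same Ag-B7 array at 72 h, and the open circles are the 12 pairs of replicate arrays at 48 h; TSA lies at 17.2%, above the replicate pairs at 5.31% to 10.8%.

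A stricter rule asked in addition that the difference exceed the gene's widest spread within any replicated stimulated group at 48 h, and that the TSA array lie above, or below, all 16 other stimulated arrays. It kept 152 higher genes (2.56%) and 123 lower genes (2.07%). Among all genes called at 2-fold, 63 of 76 further kept probe sets of the higher genes had the sign of the called one. For the lower genes 73 of 90 did. Only 20 and 37 of these were themselves past 2-fold. Under the stricter rule 17 of 22 further probe sets of the higher genes and 19 of 22 of the lower genes had that sign. Only 9 and 4 of them were past 2-fold, so the size of a difference is less certain than its direction.

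**Figure D2:**
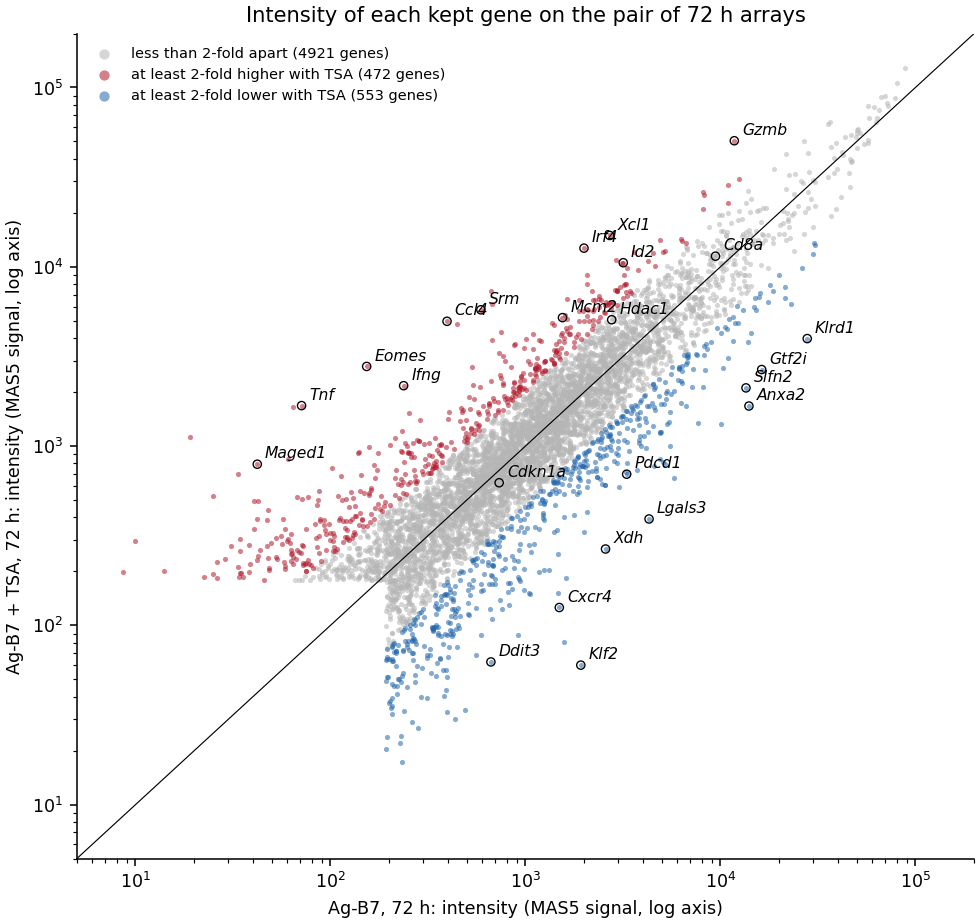
Intensity of every kept gene on the Ag-B7 array (x axis) and the Ag-B7 + TSA array (y axis) at 72 h, both MAS5 signals on log axes, with the line of equality. Red points are the 472 genes at least 2-fold higher with TSA and blue points the 553 at least 2-fold lower; labelled genes include Tnf and Eomes far above the line and Klf2 and Cxcr4 far below it.

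Cytokine and chemokine genes held the largest share of higher members among the immune lists. Of 17 kept members, 7 were at least 2-fold higher (Tnf, Ccl4, Lta, Ccl3, Ifng, Xcl1 and Tnfsf4) and 2 lower (Il16 and Ccl5), shares of 41.2% and 11.8% against 7.94% and 9.30% of all kept genes, with a median of 0.59 against 0.03 over all kept genes. Of the 17 members 15 passed the brightness filter on both arrays. Tnf and Tnfsf4 passed it on the TSA array alone, so the filter favoured their difference and the share of higher members. Between replicate arrays at 48 h the median of this list differed by up to 0.58, so its median with TSA is hardly beyond that spread. Tnf, the gene of tumour necrosis factor, had an intensity of 1682 with TSA and 71.1 without it, a log2 difference of 3.88. The 4 Ag-B7 arrays at 48 h read 97.1, 174, 99.0 and 576 for Tnf, and the 72 h arrays with IL-12 and IFNa/b read 291 and 68.1. The TSA array was the highest of all 20 arrays for this gene.

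Ifng, the gene of interferon gamma, read 2172 with TSA, 237 with Ag-B7 alone, 3534 with IL-12 and 372 with IFNa/b at 72 h. Its difference with TSA was 2.97, but the 4 Ag-B7 arrays at 48 h already ranged from 100.2 to 1171, so Ifng did not meet the stricter rule. Xcl1, a chemokine that draws cross-presenting dendritic cells, read 14949 with TSA and 2703 without it (2.45). All other arrays lay below the TSA array for Xcl1, with 2040 to 7728 on the Ag-B7 arrays at 48 h. Lta, a cytokine related to tumour necrosis factor, differed by 3.36 (7318 against 669), and a dimmer probe set of Lta differed by -0.29.

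The inflammatory chemokines Ccl4 and Ccl3 differed by 3.50 and 3.12. Both are variable in these cultures, since Ccl4 spanned 297 to 9560 over the 4 Ag-B7 arrays at 48 h, and the TSA array at 4966 lay within that span. Tnfsf4, the OX40 ligand, differed by 2.16, from 8.6 to 199, so that its level without TSA was near the floor of the array. Ccl5, a chemokine of memory cells, was lower with TSA (434 against 938, -1.04).

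Promoter sequences are shown for 4 genes, the effector cytokine genes Tnf and Ifng here and the transcription factor genes Eomes and Klf2 further on; the latter had the highest and the lowest difference of the fate factors. Each is the 250 bases before the annotated start, 5′ to 3′ on the gene's strand, from RefSeq on GRCm38.p6. Capitals mark matches on either strand to the GC box GGGCGG, the CRE core TGACGTCA, the TATA box TATAAA, the CCAAT box CCAAT and the E-box CACGTG; none of the matches overlap. Tnf lies at chr17:35202008-35202257 on the minus strand and Ifng at chr10:118440796-118441045 on the plus strand.
Tnf: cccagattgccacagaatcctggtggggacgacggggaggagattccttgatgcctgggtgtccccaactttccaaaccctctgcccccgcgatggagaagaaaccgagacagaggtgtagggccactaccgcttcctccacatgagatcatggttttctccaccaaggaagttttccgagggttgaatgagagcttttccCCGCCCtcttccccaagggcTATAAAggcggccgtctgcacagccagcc
Ifng: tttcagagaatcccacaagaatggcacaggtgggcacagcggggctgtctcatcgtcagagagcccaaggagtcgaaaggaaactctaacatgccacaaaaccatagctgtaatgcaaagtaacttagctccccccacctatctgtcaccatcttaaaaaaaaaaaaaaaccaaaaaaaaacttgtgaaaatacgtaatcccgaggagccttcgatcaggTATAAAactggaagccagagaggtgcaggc
Both windows hold a TATA box, at 29 and 30 bases before the start, and that of Tnf also holds a GC box at 49 bases. A match is a description of letters and not a site of binding.

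Transcription factors of lymphocyte fate moved in both directions. Of 39 kept members 7 were at least 2-fold higher (Eomes, Irf4, Id1, Id2, Irf8, Nr4a2 and Nfkb2) and 6 lower, shares of 17.9% and 15.4% against 7.94% and 9.30% of all kept genes, and their median of -0.12 became 0.10 when arrays were scaled on the hybridization controls. Eomes, a T-box factor of effector and memory CD8 cells, read 2781 with TSA and 153 without it, a difference of 3.82. The 4 Ag-B7 arrays at 48 h read 1242, 146, 257 and 234, and the 72 h arrays with IL-12 and IFNa/b 184 and 677. The TSA array was thus the highest of the 20, more than 2-fold above the single Ag-B7 array at 48 h that stood apart from its replicates, and a further probe set of Eomes differed by 2.75.

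Id2, an inhibitor of E proteins that supports effector cells, read 10539 with TSA and 3174 without it (1.72). It lay between 2028 and 4727 on the 4 Ag-B7 arrays at 48 h and reached 8007 with IL-12 at 72 h, so the TSA array was the highest. Id1, a relative of Id2, differed by 2.03, from 14.1 to 201. Irf4, which follows the strength of receptor signalling, differed by 2.64 (12705 against 1996), and its TSA level lay within the 2351 to 15643 of the Ag-B7 arrays at 48 h. Irf8 differed by 1.54 (6540 against 2223). The effector factor Tbx21 was not measured under a single gene name.

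Klf2, a factor that keeps T cells quiescent and lets them recirculate through lymph nodes, had the lowest difference of any gene named here, -4.21. It read 60.03 with TSA and 1922 without it, against 170 with IL-12 and 590 with IFNa/b at 72 h. The Ag-B7 arrays at 48 h read 724, 514, 526 and 94.5, the array at 24 h 50.9, and the naive arrays 12461, 5071 and 6006. Thus the Ag-B7 array at 72 h was above every other stimulated array, and the TSA array was near the level of 24 h. Ets1, a factor of naive T cells, differed by -1.49, and a further probe set of it by -1.91.

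The promoter windows of Eomes, at chr9:118477939-118478188, and of Klf2, at chr8:72318812-72319061, both on the plus strand, are as follows.
Eomes: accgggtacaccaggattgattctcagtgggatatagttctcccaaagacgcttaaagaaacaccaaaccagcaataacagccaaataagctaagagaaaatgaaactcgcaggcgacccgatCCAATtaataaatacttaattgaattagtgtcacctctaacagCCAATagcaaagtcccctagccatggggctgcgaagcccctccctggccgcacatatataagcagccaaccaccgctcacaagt
Klf2: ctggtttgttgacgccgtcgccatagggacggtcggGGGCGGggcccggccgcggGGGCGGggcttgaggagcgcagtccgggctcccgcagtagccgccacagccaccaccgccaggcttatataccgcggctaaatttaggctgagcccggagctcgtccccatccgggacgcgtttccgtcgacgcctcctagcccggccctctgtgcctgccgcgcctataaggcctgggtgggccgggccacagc
The window of Eomes holds 2 CCAAT boxes, and that of Klf2 holds 2 GC boxes and is richer in G and C (71.2% against 46.4%). Over all kept genes, 4811 of 5946 had a promoter in the table. A GC box was present in 59.8% of these, in 61.6% of the 372 higher genes with a promoter and in 56.2% of the 447 lower ones. A CCAAT box was present in 36.7%, 43.8% and 37.8%, a TATA box in 7.27%, 9.68% and 6.49%, an E-box in 9.02%, 7.53% and 7.61%, and a CRE core in 2.56%, 1.61% and 1.79%. Among all 27025 promoters of the table the GC box was found in 32.9%, the CCAAT box in 34.5% and the TATA box in 12.97%. The higher and the lower genes thus held these letters about as often as kept genes did, with the widest gap at the CCAAT box, and no test was made.

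**Figure D3:**
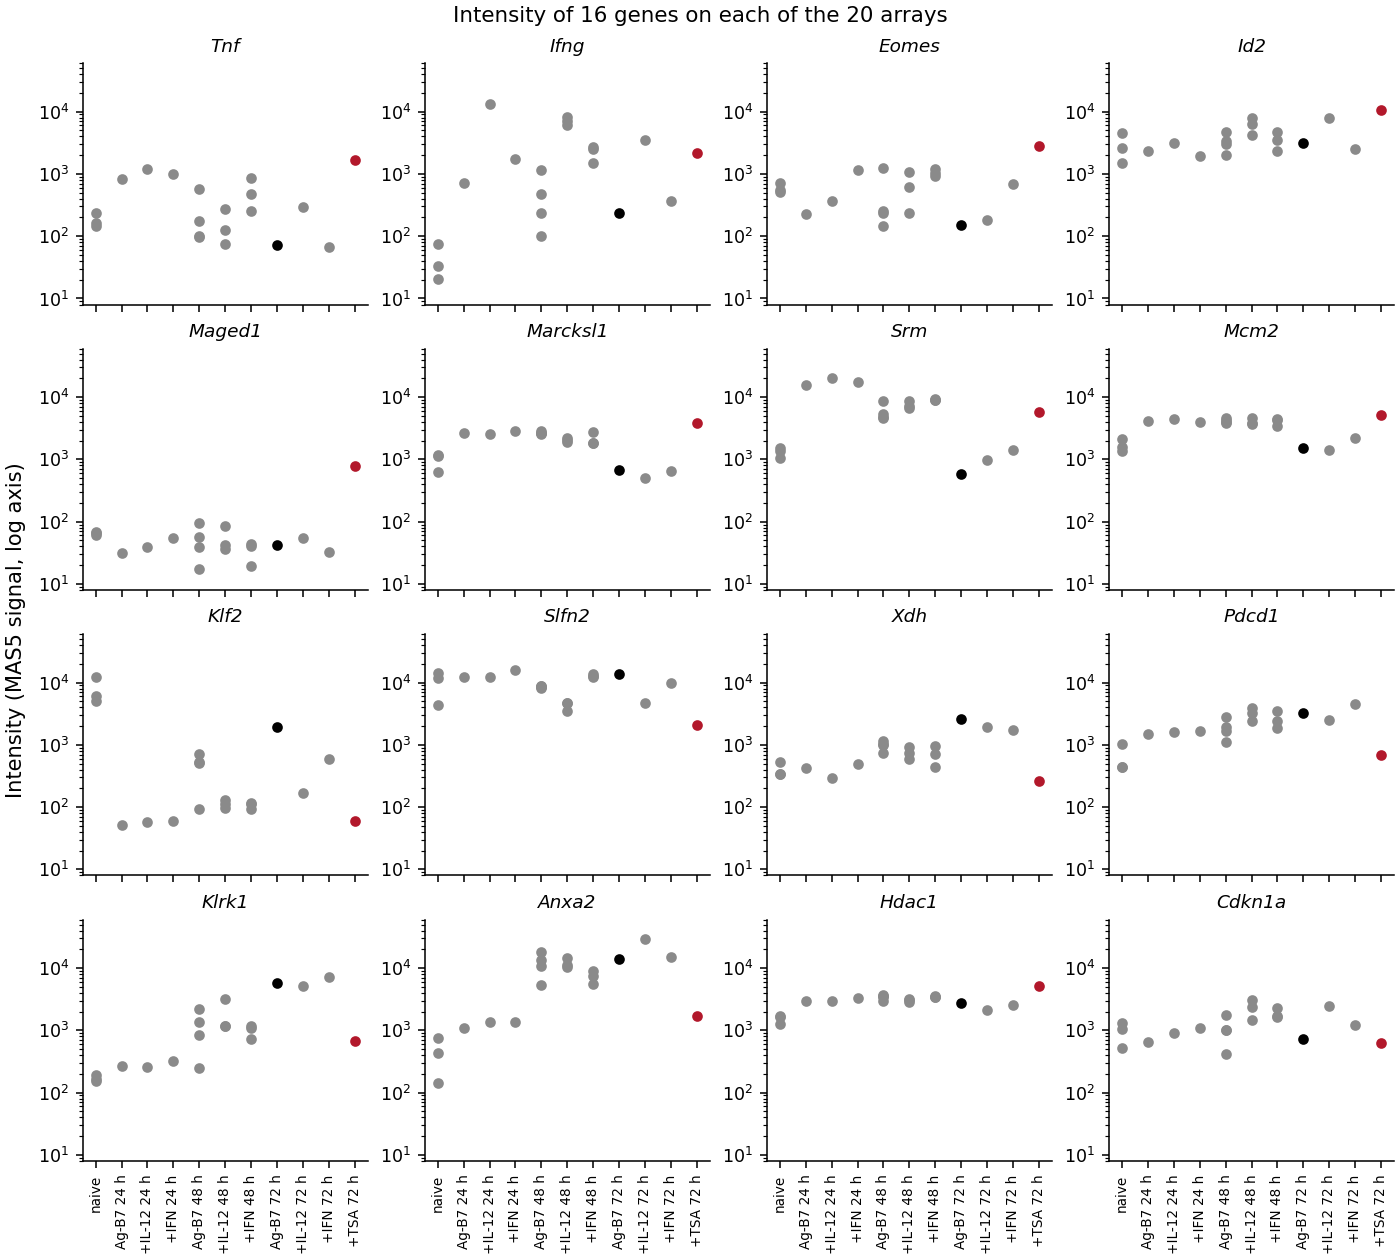
Intensity of 16 genes (MAS5 signal, log axis) on each of the 20 arrays, grouped by stimulus and time on the x axis; each point is 1 array, the black point is Ag-B7 at 72 h and the red point Ag-B7 + TSA at 72 h. Tnf, Eomes, Id2 and Maged1 are highest on the TSA array and Slfn2 and Xdh lowest, whereas Srm and Klf2 on the TSA array lie within the range of earlier stimulated arrays.

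Cytotoxic molecules were more often lower than higher, with 11 kept members below 0 and 4 above it. Of 15 kept members 1 was higher (6.67% against 7.94% of all kept genes) and 5 were lower (33.3% against 9.30%), with a median of -0.47. That median lies within the spread between replicate arrays at 48 h, where it differed by up to 0.58. The higher member was Gzmb, the granule protease granzyme B, which read 50455 with TSA and 11775 without it (2.09). IL-12 and IFNa/b gave 41439 and 37108 at 72 h, and the Ag-B7 arrays at 48 h 20017 to 30967, so the Ag-B7 array at 72 h was below all stimulated arrays. Prf1, the pore-forming protein, read 586 with TSA and 481 without it, against 1882 with IL-12. Fasl, the death ligand, read 315 with TSA and 453 without it, against 1722 with IL-12.

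The 5 lower members were the NK-type receptors Klrk1, Klrd1 and Klrc1, and the proteases or protease inhibitors Ctla2b and Ctsw. Klrk1 (NKG2D) read 667 with TSA and 5804 without it, a difference of -3.04, and a further probe set differed by -2.46. Klrd1 (CD94) read 3977 against 27859, a difference of -2.79. In both genes the Ag-B7 array at 72 h was above all Ag-B7 arrays at 48 h, and the TSA array lay within their range. Probe sets of such families may not tell close relatives apart.

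Of 24 kept costimulatory and inhibitory receptors 2 were higher (8.33%; Cd83 and Cd70), 6 lower (25%; Ctla4, Cd200, Pdcd1, Cd27, Cd80 and Cd6) and the others within 2-fold, with a median of -0.52. Over all kept genes the shares were 7.94% and 9.30%, and between replicate arrays at 48 h the list median differed by up to 0.47. Pdcd1, the inhibitory receptor PD-1, read 697 with TSA and 3304 without it (-2.17), with 1102, 2771, 1970 and 1671 on the Ag-B7 arrays at 48 h. Cd200, a ligand that restrains myeloid cells, read 249 against 1466 (-2.36). For both genes the TSA array was below all other stimulated arrays. Ctla4, an inhibitory receptor for B7, read 816 against 5058 (-2.57), above its lowest stimulated level of 390. Cd27, a costimulatory receptor, differed by -1.58 and a further probe set of it by -2.05.

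Among homing and adhesion receptors 2 of 22 were higher (9.09% against 7.94% of all kept genes) and 8 lower (36.4% against 9.30%), with a median of -0.74. Cxcr4, which retains cells in bone marrow, read 126 with TSA and 1492 without it (-3.16), and S1pr1, which lets cells leave lymph nodes, 95.9 against 438 (-1.77; a further probe set differed by -0.11). Ccr2, a receptor for inflammatory chemokines, read 530 against 25.1 (3.01) and was also high with IL-12, at 329. Cd24a read 3721 against 883 (2.02). Emb was lower by one probe set (-1.90) and higher by another (1.30), so its direction is uncertain.

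Cytokine receptors and the JAK-STAT chain had 5 of 35 members higher (14.3% against 7.94% of all kept genes) and 7 lower (20% against 9.30%), with a median of -0.43. Il2ra, the high-affinity chain of the IL-2 receptor, read 1402 with TSA and 288 without it (2.12), and 1196 with IL-12. The feedback inhibitors Socs2, Cish and Socs1 and the IL-10 receptor chain Il10ra were the other higher members; Socs2 differed by 1.79. The lower members were Il7r, Ifngr1, Stat4, Ifnar2, Il10rb, Il17ra and Ifnar1. Il7r, the alpha chain of the IL-7 receptor, read 809 against 3302 (-1.97), with 310 to 675 on the Ag-B7 arrays at 48 h. Stat4, which carries the IL-12 signal, read 1963 against 5607 (-1.49), and Ifngr1, a chain of the interferon gamma receptor, 1040 against 3803 (-1.82). In contrast, the IL-12 receptor chain Il12rb2 read 2282 and 2177.

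Interferon-stimulated genes had 2 of 33 members higher (6.06% against 7.94% of all kept genes) and 10 lower (30.3% against 9.30%), with a median of -0.24. Replicate arrays at 48 h differed by up to 0.33 in the median of this list. Irf7, an interferon-induced factor, read 88.8 with TSA, 910.5 with Ag-B7 alone and 3463 with IFNa/b at 72 h (-2.82 for TSA), and a dimmer probe set differed by -0.03. The Ag-B7 arrays at 48 h read 74.6 to 126 for Irf7, so the TSA array was at their level. Trim25, a ubiquitin ligase of antiviral sensing, read 980 against 4134 (-2.03), the lowest of the 20 arrays. Isg20 differed by -1.74 and Adar by -1.20. The higher members were Usp18 (1.30) and Ifit3 (1.01).

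Genes of naive and quiescent T cells were lower or within 2-fold. Of 33 kept members 0 were at least 2-fold higher, against 7.94% of all kept genes, and 15 were lower, against 9.30%, with a median of -0.995. Slfn2, a schlafen protein that guards quiescence, read 2112 with TSA and 13517 without it (-2.65), and a further probe set differed by -2.39. The 4 Ag-B7 arrays at 48 h read between 8248 and 8812, and the TSA array was the lowest of the 20. Cd7 differed by -2.48, the cyclin Ccng2 by -2.005 and Dgka, a kinase that dampens receptor signalling, by -1.85. Of the 15 lower genes, all 15 were higher on the Ag-B7 array at 72 h than on any Ag-B7 array at 48 h. This held for 27 of all 33 kept members and for 2284 of the 5946 kept genes. Choosing genes lower with TSA favours a high Ag-B7 array at 72 h, so the count of 15 is no independent result. With TSA 5 of the 15 lower genes lay above all Ag-B7 arrays at 48 h, 7 within their range and 3 below it.

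S100 proteins, annexins and galectins gave a like count, with 0 of 17 higher, 8 lower (47.1% against 9.30% of all kept genes) and a median of -0.95. Replicate arrays at 48 h differed by up to 0.76 in that median. Anxa2, a membrane-binding annexin, read 1673 with TSA and 13999 without it (-3.03), and 10707, 18333, 13552 and 5415 on the Ag-B7 arrays at 48 h. Lgals3, a galectin, read 392 against 4303 (-3.31) and 13541 with IL-12. The TSA level of both was below all 4 Ag-B7 arrays at 48 h. S100a4 differed by -2.28, from 389 to 43.4.

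**Figure D4:**
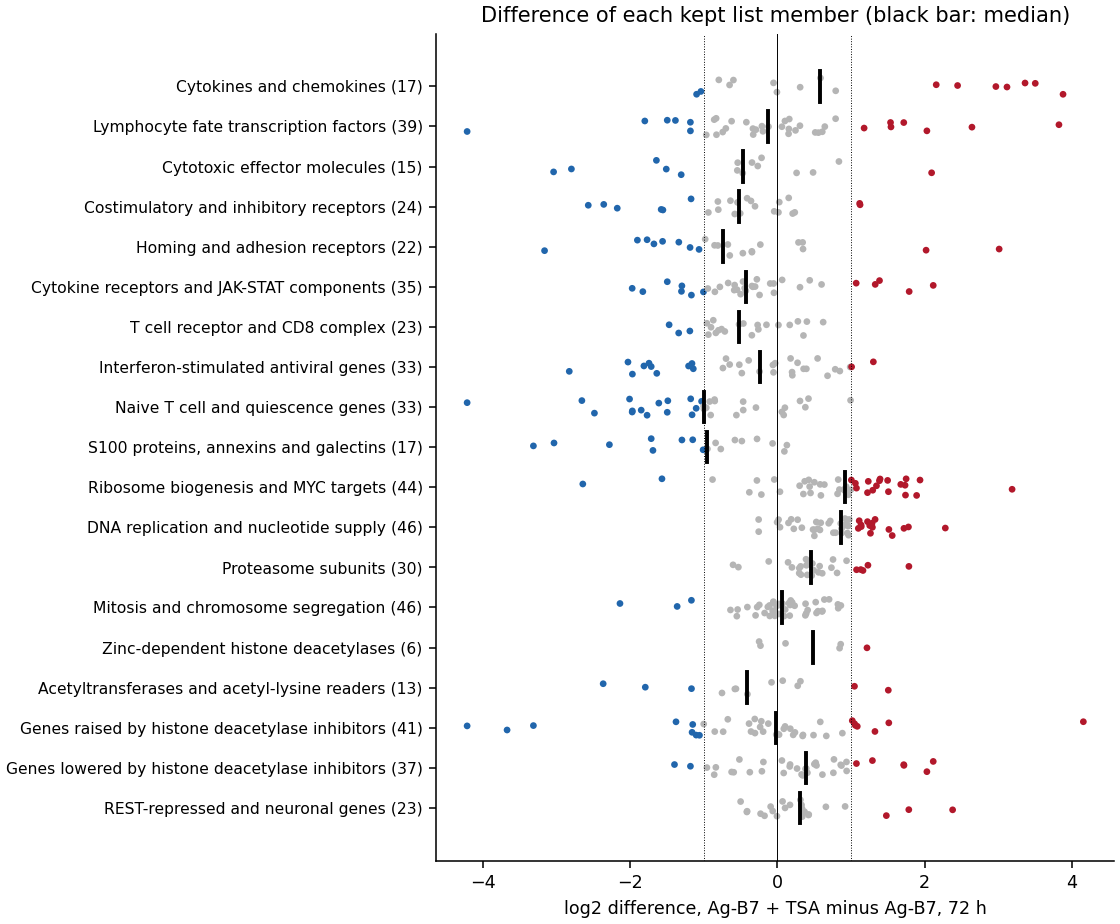
Difference of each kept list member between the TSA and the Ag-B7 array at 72 h (x axis, log2), by list, with the number of kept members in parentheses; black bars are medians, dotted lines the 2-fold limits, red points higher and blue points lower members. Points are spread vertically at random for legibility. Medians range from -0.995 for genes of naive T cells to 0.91 for ribosome biogenesis. Between replicate arrays at 48 h the median of either of these lists differed by up to 0.33.

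Growth and replication genes lay on the other side. Of 44 kept genes of ribosome biogenesis and MYC targets 18 were at least 2-fold higher (40.9% against 7.94% of all kept genes) and 2 lower (4.55% against 9.30%), with a median of 0.91. Srm, spermidine synthase, read 5755 with TSA and 590.5 without it (3.19), with 4776, 4597, 5368 and 8600 on the Ag-B7 arrays at 48 h. Nop56, a core protein of small nucleolar particles, read 8055 against 2069 (1.94; a further probe set 0.68), and Apex1, a base excision repair enzyme, 4193 against 1096 (1.89). Fbl, the methylase fibrillarin, differed by 1.51. The 2 lower members were Mxd4 (-2.64) and Mxi1 (-1.57), which compete with MYC for its partner MAX. Myc itself read 3009 with TSA and 2109 without it, within the 1606 to 6366 of the Ag-B7 arrays at 48 h.

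DNA replication and nucleotide supply had 15 of 46 members higher (32.6% against 7.94% of all kept genes) and 0 lower, with a median of 0.87. The replicative helicase subunits Mcm2 and Mcm7 differed by 1.72 and 1.56. Mcm2 read 5206 with TSA and 1549 without it; the 4 Ag-B7 arrays at 48 h read 3842 to 4539, and the TSA array was the highest of the 20. Shmt1 and Gart, of folate and purine synthesis, differed by 2.28 and 1.78, and a further probe set of Shmt1 by 0.62. Orc1, of the origin recognition complex, differed by 1.51 and Rrm1, of ribonucleotide reductase, by 1.29 (a further probe set 0.18).

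Proteasome subunits had 5 of 30 members higher (16.7% against 7.94% of all kept genes) and 0 lower (against 9.30%), with a median of 0.46, led by Psmd1 at 1.79. Mitosis genes did not share this: 0 of 46 were higher (against 7.94%) and 3 lower (6.52% against 9.30%), with a median of 0.07. The 3 were Kifc1, a spindle kinesin (-2.13), Hmgb2, a chromatin protein (-1.36), and Smc4, of condensin (-1.17). The proliferation marker Mki67 differed by -0.29 with its brightest probe set and by 0.69 with another. The cell cycle inhibitor Cdkn1a, a gene often raised by deacetylase inhibitors, read 625 with TSA and 733 without it (-0.22).

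The growth, replication and quiescence lists can be placed in time by the Ag-B7 arrays at 48 h. Relative to the mean of those 4 arrays, ribosome biogenesis and MYC targets had a median of -1.12 on the Ag-B7 array at 72 h and -0.16 on the TSA array. For DNA replication the medians were -0.86 and -0.14, for naive T cell genes 1.21 and 0.21, and for S100 proteins, annexins and galectins 1.08 and 0.22. On the Ag-B7 array at 72 h, 36 of 46 replication genes and 35 of 44 ribosome biogenesis genes were below all 4 Ag-B7 arrays at 48 h, against 19 and 16 on the TSA array. In each of these lists the TSA array was nearer to 48 h than the Ag-B7 array of its own time was. These positions share the Ag-B7 array with the differences above and are no independent support for them. Glycolysis genes lay at -0.51 and -0.57 on the 2 arrays, and so did not show this.

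**Figure D5:**
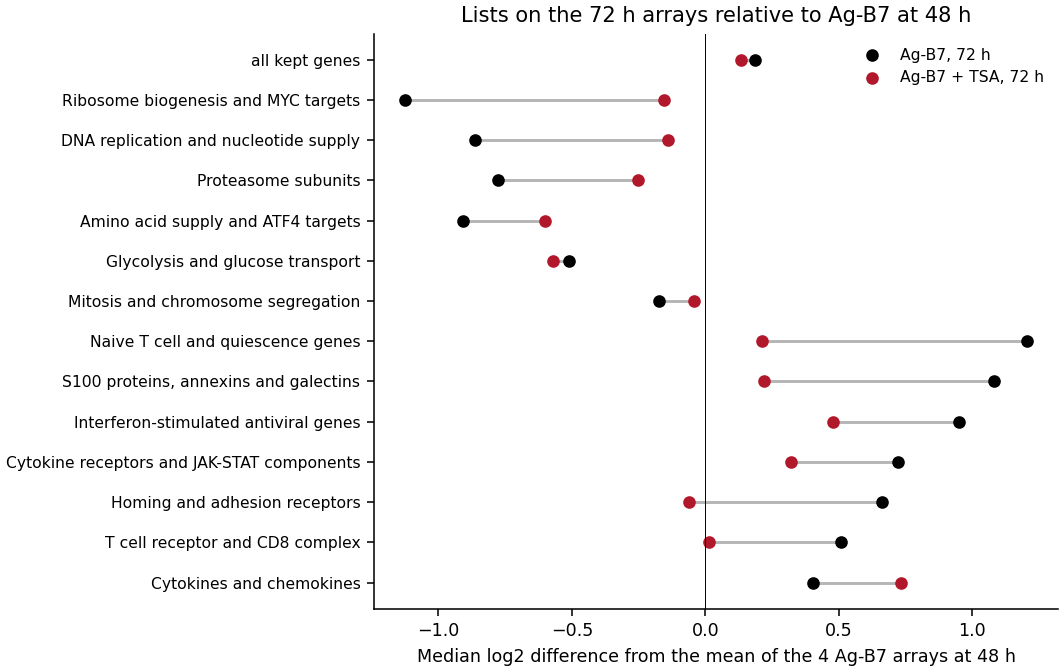
Median over the kept members of each list of the log2 difference from the mean of the 4 Ag-B7 arrays at 48 h (x axis), for the Ag-B7 array (black) and the Ag-B7 + TSA array (red) at 72 h. Ribosome biogenesis lies at -1.12 without TSA and -0.16 with it, and naive T cell genes at 1.21 and 0.21.

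Not all called genes were of that kind. Of the 472 higher genes, 291 were above all 4 Ag-B7 arrays at 48 h on the TSA array, 134 within their range and 47 below it. Of the 553 lower genes, 269 were below all of them, 240 within and 44 above. Over all 5946 kept genes the TSA array was above for 2109, within for 2409 and below for 1428. The Ag-B7 array at 72 h was above for 2284, within for 2181 and below for 1481. Over the 1025 called genes, the TSA array was within the 48 h range for 374. The Ag-B7 array at 72 h was within it for only 257, and above it for 475. Thus the array without TSA left that range for more of the called genes than the TSA array did.

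Genes with a level on the TSA array that no other stimulated array reached came from many functions. Those named in this paragraph passed the brightness filter on the TSA array alone, so their high level there is why they were kept. Maged1, of a family named for antigens of melanoma, read 792 with TSA and 42.1 without it (3.24), and at most 93.8 on any other stimulated array. Scx, a tendon transcription factor, read 1648 against 64.3 (3.94), although naive arrays read 523, 4664 and 919. Crmp1, a neuronal phosphoprotein, read 912 against 138 (2.38), at most 280 elsewhere among stimulated arrays. Cd63, a tetraspanin of granule and endosome membranes, read 843 against 60.9 (3.05), and Fkbp11, a chaperone of the secretory pathway, 697 against 33.8 (3.21). Bmp7, a bone morphogenetic protein, read 522 against 67.0 (2.33).

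Marcksl1, an actin-binding protein, differed by 2.45 with intensities of 3882 and 670.3, and is one of the brighter genes of this kind; its Ag-B7 arrays at 48 h read 2603 to 2901. Among genes whose brighter array was above the median of all named genes, the other highest differences under the stricter rule were Trgv4 (2.43), Slc48a1 (2.39), Col18a1 (2.19), Prss2 (2.18) and Rbpms (2.15). Trgv4 and Col18a1 passed the brightness filter on the TSA array alone. A further probe set of Rbpms differed by 1.93, whereas the 4 of Col18a1 were within 2-fold and 2 of them of the opposite sign, so its direction is uncertain. Of 23 kept REST-repressed and neuronal genes 3 were higher (Crmp1, Uchl1 and Basp1) and 0 lower, with a median of 0.31. These shares were 13.04% and 0%, against 7.94% and 9.30% of all kept genes. Between replicate arrays at 48 h the median of this list differed by up to 0.56, so its median with TSA lies within that spread. Germ line and testis genes had 1 of 13 higher, the sperm chromatin gene Tnp2 (1.70), and 1 lower, Crem (-1.05), which is 7.69% each way and near the 7.94% and 9.30% of all kept genes.

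By the same limit on brightness, the lowest differences under the stricter rule began with Xdh, xanthine dehydrogenase, at 267 with TSA and 2574 without it (-3.07). The Ag-B7 arrays at 48 h read 734 to 1159 for Xdh, and the TSA array was the lowest of the 20. Ddit3, a stress-induced factor, read 62.6 against 665 (-2.71) and 3363 with IL-12, and Ddit4, an inhibitor of the growth kinase mTORC1, 1341 against 7663 (-2.47). Gtf2i, a general transcription factor, read 2672 against 16270.4 (-2.59), with a further probe set at -2.52. The others were Ppic (-2.45), Crebbp (-2.36), Brd1 (-2.25), Lxn (-2.24), Chd7 (-2.14), Traf1 (-2.12), Rabggta (-2.10) and Hdhd5 (-2.05), beside Slfn2, Cd200 and Pdcd1 above. Crebbp, Brd1 and Chd7 code for an acetyltransferase, an acetyl-lysine reader and a chromatin remodeller. Ddit3, Lxn, Brd1 and Rabggta passed the brightness filter on the Ag-B7 array alone, so their high level there is why they were kept.

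The enzymes that TSA blocks and their opponents were measured as well. Of 6 kept zinc-dependent deacetylases 1 was at least 2-fold higher, Hdac2 (2958 against 1246, 1.22), and 0 were lower. These shares were 16.7% and 0%, against 7.94% and 9.30% of all kept genes. Hdac1 read 5067 with TSA and 2769 without it (0.86), and Hdac6, the tubulin deacetylase, 2256 against 1235 (0.85). Neither passed 2-fold, though the TSA array was the highest of the 20 for both, with 3007 to 3670 for Hdac1 and 1001 to 1233 for Hdac6 on the Ag-B7 arrays at 48 h. Hdac3 (0.11) and Hdac7 (-0.25) had the smallest differences of those chosen for description. Of 19 deacetylase complex subunits 1 was higher, Mta2 (1.13), and 0 lower, shares of 5.26% and 0% against 7.94% and 9.30%.

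Acetyltransferases and acetyl-lysine readers had 2 of 13 higher (15.4% against 7.94% of all kept genes) and 3 lower (23.1% against 9.30%), with a median of -0.41. Replicate arrays at 48 h differed by up to 0.45 in this median. Crebbp (CBP) read 204 with TSA and 1242 without it (-2.36), against 445 to 707 on the Ag-B7 arrays at 48 h. Kat2b (PCAF) read 285 against 1101 (-1.79), the lowest of the 20 arrays, but a dimmer probe set differed by 0.83. Hat1, which acetylates new histones, differed by 1.51, and a further probe set of it by 0.50. Of 9 kept histone genes, the linker histones H1f5 (2.60) and H1f10 (1.95) were higher and H2az2 (-1.31) and H3c14 (-1.43) lower. This is 22.2% each way, against 7.94% and 9.30% of all kept genes. Only 6 of the 9 passed the brightness filter on both arrays. H1f5 and H1f10 passed it on the TSA array alone and H3c14 on the Ag-B7 array alone, so the filter favoured their differences.

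A list of genes known from other cells to be raised by deacetylase inhibitors had members on both sides. Of 41 kept members 7 were higher (17.1% against 7.94% of all kept genes) and 8 lower (19.5% against 9.30%), and the median was -0.01, or 0.19 when scaled on the hybridization controls. Crabp2, a retinoic acid carrier, had the largest difference of any gene named here, 4.15, from 18.97 to 1117, though 1 or more other stimulated arrays were higher, up to 1288. Plat, tissue plasminogen activator, differed by 1.33 and Mt1, a metallothionein, by 1.51. Klf2, Aldoc and Lgals3 were among the lower members. Gsn, gelsolin, read 2914 and 2738 (0.09). The list of genes known to be lowered had 6 of 37 higher (16.2% against 7.94%), 2 lower (5.41% against 9.30%) and a median of 0.38, and its higher members were Il2ra, Id1, Id2, Mcm2, Mcm3 and Cdc25a.

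The series set TSA beside the cytokines. IL-12 and IFNa/b at 72 h are read against the same Ag-B7 array, so the 3 differences of a gene share that array and are only set side by side. For Tnf they were 3.88 with TSA, 1.52 with IL-12 and -0.04 with IFNa/b, and for Gzmb 2.09, 1.81 and 1.65. For Ifng they were 2.97, 3.66 and 0.56, and for Id2 1.72, 1.32 and -0.36. In contrast Eomes differed by 3.82, 0.21 and 1.86, Prnp by 0.02, 2.45 and -1.001, and Anxa2 by -3.03, 1.06 and 0.13.

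Cytokine genes were also chosen from the replicated arrays at 48 h, which share no array with the 72 h pair. In limma, fitted over 6279 genes with Benjamini-Hochberg adjustment, 24 genes were higher (0.382%) and 15 lower (0.239%) with IL-12 than with Ag-B7 at 48 h at an adjusted p below 0.05, and 26 were higher with IFNa/b (0.414%). The IL-12 counts rest on few arrays: 14 were higher without Ag-B7 replicate 1, and 9, 15 or 13 without IL-12 replicate 1, 2 or 3. The 15 lower genes became 5, 8 or 6 without Ag-B7 replicate 1, 2 or 3, and 7, 7 or 4 without IL-12 replicate 1, 2 or 3. Over the 5819 genes present in both tables, 7.29% were at least 2-fold higher and 9.005% lower with TSA at 72 h.

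Of the 23 IL-12-raised genes that were kept, 5 were at least 2-fold higher with TSA (21.7%) and 1 lower, and their median was -0.02. With the replicate block 19 such genes were kept, of which 4 were higher (21.1%) and 2 lower (10.5% against 4.35% without the block), with a median of -0.20. The 5 were Crabp2 (4.15), Gadd45g, a stress protein upstream of p38 (3.31), Ifng (2.97), Traf4 (1.36) and Usp18 (1.30), and the lower gene was Ctla2b (-1.64). Gadd45g read 4827 with TSA, 2674 with IL-12 and 446 with Ag-B7 alone at 72 h. By contrast Prnp read 1454, 7994 and 1429, Hopx 3881, 14703 and 6325, and Furin 3560, 6311 and 2268 on the same arrays. The other 17 of the 23 were within 2-fold of the Ag-B7 array.

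Of the 15 genes lower with IL-12, 0 were higher and 3 lower with TSA (20%; Dgka, Lgals3bp and Slfn1), with a median of -0.65. With the replicate number of every group as a block, 14 genes were lower with IL-12 and 5 of them lower with TSA (35.7%). Whether the replicate numbers pair arrays is not settled. The share was 0% without Ag-B7 replicate 1 or 2 or IL-12 replicate 2 or 3, which left 4 to 8 such genes, and 38.5% without Ag-B7 replicate 4 and 31.6% without naive replicate 2. Of 22 kept IFNa/b-raised genes 3 were higher with TSA (Ifng, Usp18 and Ifit3) and 6 lower, with a median of -0.46. The 6 were Irf7 (-2.82), BC147527 (-2.40), Isg20 (-1.74), Lgals3bp (-1.71), Slfn1 (-1.61) and Adar (-1.20). Leaving out IFNa/b replicate 1 or 2 left 15 or 14 IFNa/b-raised genes, and without IFNa/b replicate 3 or 1 the share higher with TSA was 6.67% or 8.33% in place of 13.6%; without replicate 1 the share lower was 41.7% in place of 27.3%.

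Genes changed by activation itself showed a division too. In the same limma fit 1640 genes (26.1%) were higher and 2236 (35.6%) lower with Ag-B7 at 48 h than in naive cells. Under quantile normalization 1939 were higher and 1637 lower, so which count was larger depended on the scaling. The actin 3′ to 5′ ratio was 1.13, 2.06 and 1.61 on the naive arrays and 1.00 to 1.15 on the stimulated ones; its part in these calls was not tested. Of the 1619 activation-raised genes that were kept, 11.98% were at least 2-fold higher with TSA at 72 h and 4.08% lower. Of the 2023 activation-lowered genes 3.95% were higher and 11.8% lower. The medians were 0.21 and -0.04, so the division lies in the genes past 2-fold more than in the middle of either set.

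Identity and purity were read from marker genes, as sums of intensity over each list. CD8 T cell identity genes were bright on both arrays, with Cd8a at 11457 with TSA and 9430.0 without it, but their sum was 101711 with TSA and 142797 without it. Of the 11, all kept, 8 were below 0 and 2 at least 2-fold lower (Cd3d and Cd247), with a median of -0.87. The share lower was 18.2%, against 9.30% of all kept genes. Thy1, named after its value was seen, read 19520 against 10234 (0.93). Genes of the T cell receptor and CD8 complex had 0 of 23 higher and 3 lower (Cd3d, Cd247 and Ptpn22) with a median of -0.52; a further probe set of Cd3d differed by 0.00. In bulk RNA, fewer cells of a type and less RNA per cell cannot be told apart. B cell markers summed to 6838 with TSA and 17168 without it, with 6 of 14 kept and 1 lower, the immunoglobulin gene Ighm (-1.74). Most of that gap is Ighm, at 4276 against 14373, whose 15 further probe sets differed in sign, 3 being at least 2-fold higher and 1 lower, so its direction is uncertain. Myeloid and dendritic markers summed to 4481 and 4680 (12 of 21 kept), NK markers to 510 and 700 (2 of 6), CD4 and gamma-delta markers to 1176 and 715 (2 of 4, with Trgv4 the higher one), erythroid and platelet markers to 999 and 895 (3 of 7), and mast cell markers to 1537 and 1544 (2 of 11). Stromal and endothelial markers summed to 23951 and 14271 (5 of 14), mostly through Thy1, which T cells express. No marker was listed at 0. The part of these sums in the list results was not tested; MHC class II genes, which B cells express, had Cd74 (1.99) and Ifi30 (1.09) higher and H2-Oa (-1.05) lower, while the B cell sum was lower.

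Scaling bears on every direction given. The 2 arrays matched in actin 3′ to 5′ ratio (1.11 without TSA and 1.07 with it) and in median intensity (334 and 322). The 9 reference genes summed to 87835 with TSA and 110487 without it, with 8 of 9 below 0, none past 2-fold and a median of -0.29. Scaled on the bacterial hybridization controls, which are added in fixed amounts, the median gene was higher with TSA by 0.23, and 746 genes were at least 2-fold higher and 376 lower. Higher genes were then 66.5% of those past 2-fold, against 46.0% as deposited, and the stricter rule gave 71 lower genes in place of 123.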

How the data were processed

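The deposited values are intensities, 1 MAS5 signal per probe set on each of 20 one-colour Affymetrix arrays; MAS5 is named per the submitters' processing notes, with no version named. The authors' values were already scaled: the mean after trimming 2% at each end was 1000.46 to 1000.74 on every array, so a change in total RNA cannot be seen. They were used as deposited. Of 12488 probe sets, 10833 had 1 gene symbol, 396 several, 1193 were unlisted and 66 were controls; only those with 1 symbol were named, and the brightest probe set stood for a gene.

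Values were transformed as log2(value + 46.4), the pseudocount being the median of the arrays' 20th percentiles. The pair at 72 h was compared without a test. The 13 replicated arrays were fitted in limma 3.58.1 under R 4.3.3, with 1 mean per group and a variance trend, after a filter at the 40th percentile on at least 3 arrays; the fit was tested on simulated data. Errors rest on few arrays, which limits the precision. Same-numbered Ag-B7 and IL-12 arrays at 48 h deviated together (r 0.28 for each of the 3 numbers), whereas those of Ag-B7 and IFNa/b did not (0.11, -0.04 and -0.10). Arrays with unlike numbers were not compared, so whether the numbers pair arrays is not settled. The main fit had no replicate block.

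Genes were named by a rule: the 15 largest rises and falls of the stricter rule among genes brighter than the median, up to 4 past 2-fold (otherwise the largest) from each of 39 theme lists, genes picked by name, and changed markers from 9 marker lists. Members completing small counts, and Thy1, Plat and a few others, were named after their values were seen. The members and lists were chosen with earlier results of these data known. Scaling, pseudocount, filter, probe set choice, the replicate block and leaving out each replicate were varied.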

Additional observations from a re-analysis of the deposited data

Results flagged for a closer look

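Among the 4 Ag-B7 arrays at 48 h, 8 of the 188 named genes had 1 array far from the others, by the gap to its neighbour as a share of the whole range (Dixon's test); chance gives about 1 in 20. The array was the lowest for Crabp2 (0.845), Phlda2 (0.886), Mt2 (0.8293), Pdia4 (0.866) and Crebbp (0.888), and the highest for Bmp7 (0.890), Hmgb2 (0.967) and Il7r (0.863). These arrays serve as the spread against which the TSA differences of the 8 genes were read.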

How the results depend on the processing

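The counts moved by more than 1.5 times under 4 settings. Median centring gave 96 genes in place of 152 strictly higher, and the filter at the 60th percentile 100. Control scaling gave 746 in place of 472 higher and 71 in place of 123 strictly lower, and a pseudocount at the 40th percentile 308 higher. The 60th percentile filter turned the median of MHC class II genes to 0.15. The share of IL-12-lowered genes that were lower with TSA was 20%, 35.7% with the replicate block, and 0% to 38.5% when 1 replicate was left out, since few genes were called. The IFNa/b readout had 33 genes with the block, 6 of 29 kept (20.7%) higher with TSA. Same-numbered arrays of Ag-B7 and IFNa/b did not deviate together. Under the 60th percentile filter the NK and erythroid marker lists had no member left. Of the 188 named genes, 28 moved by more than the replicate spread under control scaling, 36 under the larger pseudocount and 19 with the mean of all probe sets. List medians were less stable under control scaling, where 25 moved by more than their replicate spread and 23 did not. The spread at 72 h and the depth of a single array pair limit every difference.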
